A study of Rattus norvegicus with 6 samples.

Results

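Cytochrome P450 genes were taken as every rat gene whose RefSeq symbol is Cyp followed by a digit. RefSeq lists 104 such genes, 90 of them protein coding, and 71 had at least 1 array probe matched by RefSeq accession. A gene was kept where a probe was well above background on all arrays of at least 1 group, which held for 42 of the 71 genes, from 26 subfamilies. Of the 71, 29 were not kept, and the other 33 of the 104 are not analysed here. The tissue was renal cortex of male Sprague-Dawley (Crl:CD(SD)) rats, bought at 5 weeks of age. Control animals were given corn oil for 4 weeks. Treated animals were given 4-hydroxy-m-phenylenediammonium dichloride at 100 mg/kg/day for 4 weeks, for which no vehicle is named in the sources used here. There were 3 animals per group, with 1 single-colour Cy3 array per animal, and the only comparison was treated against control.

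Cytochromes P450 are haem enzymes that insert an oxygen atom into their substrates, with electrons passed on by a reductase in the endoplasmic reticulum or by ferredoxin in mitochondria. In the kidney they are found mainly in proximal tubule cells. The family there includes fatty acid and arachidonic acid hydroxylases and epoxygenases, whose products act on tubular transport and vessel tone, and the enzymes that make and break down active vitamin D. Many family members also oxidise foreign compounds, and in the rat several of those are far better known from liver.

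Levels are given as log2 signal minus the 75th percentile of all non-control probes on the same array, so a level of 0 is that percentile. They compare 1 probe between animals and set no gene against another. The raw 75th percentile lay between 837 and 1001 on the 6 arrays, and 63.1% to 69.6% of probes were well above background. The 3 control arrays shared 1 slide and the 3 treated arrays another, so an effect of the slide and one of the compound cannot be told apart here. Arrays are counted as animals because the design text calls them biological replicates, and their number limits the precision. Of 13 proximal tubule markers, all were well above background on all 6 arrays, and their summed linear level was 2221 to 2410 in controls and 2045 to 2221 in treated animals. Aqp1, a water channel gene, was the only one of them called (lower in treated cortex, limma adjusted p = 0.034). Its call was lost with no filter on dim probes and with the replicate number as a block (limma adjusted p = 0.14). It was also lost in all 6 fits that left out 1 array (adjusted p 0.073 to 0.11). The block fit called 0 of all 12130 genes, and the fits without 1 array called 0 to 54. Over the latter the log2 difference of Aqp1 ran from -0.64 to -0.53. Of 10 adrenal markers, Mrap, Hsd3b1, Th and Pnmt were well above background on all 6 arrays. Star, Mc2r, Nr5a1, Dbh and Chga were so on none, and Akr1b7 on 1 array. Summed red blood cell markers were 435 to 569 in controls and 667 to 1027 in treated animals. For 7 of 7 kept members all treated values lay above all controls, which held for 14.1% of all genes. Gata1, among these members, was well above background on no control array. It passed the filter through the treated group alone, so its separation adds nothing to this count. The part of these cells in the P450 values was not tested. In bulk tissue, fewer cells of a type and less RNA per cell cannot be told apart.

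Control 3 stood apart for P450 genes. The signal of 10 of the 71 genes was highest there alone, by at least 1 on the log2 scale and well above background, against 1.28% of the 15645 genes with a named probe (201 genes). No P450 gene stood out in this way on any other array. The 10 genes were Cyp2a2, Cyp2b3, Cyp2c7 and Cyp11b3 among those kept, and Cyp2c6v1, Cyp2c13, Cyp3a2, Cyp3a18, Cyp3a23-3a1 and Cyp4f4 among those not kept. Cyp3a2, a drug and steroid hydroxylase of male rat liver, read -7.07, -6.70 and -1.10 in controls 1 to 3 and -5.02, -6.11 and -5.78 in treated animals 1 to 3. Cyp2c13, a male-specific liver enzyme, read -7.49, -7.75 and -1.87 in controls against -7.63, -7.28 and -5.42 in treated animals. Both were thus high on control 3, and each was well above background on only 1 other array.

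Liver markers moved with these genes on the same array. The summed linear level of 8 liver markers was 3.74, 2.45 and 20.1 in controls 1 to 3 and 3.19 to 3.65 in treated animals. Alb, which encodes albumin, read -1.05, -1.49 and 3.89 in controls and -0.58, -1.11 and -0.03 in treated animals. Serpina1, a liver protease inhibitor gene, read -5.09, -5.42 and -0.20 against -4.20, -4.42 and -3.96. Control 3 was again the single high array. Of the list, 5 of 8 members passed the filter, while Cps1 and Tat were well above background on no array and Fga was level across animals (0.51 to 0.84 in controls, 0.55 to 0.99 in treated animals). The part of liver RNA in these P450 values was not tested. For the kept genes of this set, values without control 3 are given where each gene is described.

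**Figure D1:**
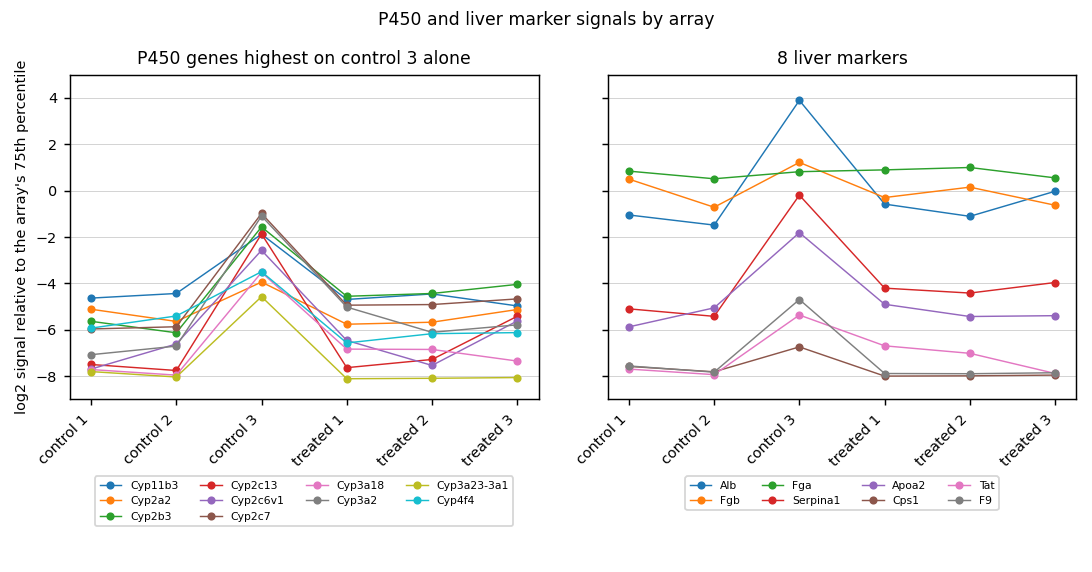
Log2 signal relative to the array's 75th percentile on each of the 6 arrays, for the 10 P450 genes that were highest on control 3 alone (left) and for the 8 liver markers (right). Each line joins the 6 values of 1 gene and has no other meaning; the 10 P450 genes peak on control 3, as do Alb and Serpina1, whereas Fga does not.

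None of the 42 P450 genes passed the test. At a limma adjusted p under 0.05, 0 were higher and 0 were lower in treated cortex, where 3.05% of the 12130 genes tested were called higher and 1.33% lower (4.38% in either direction). Over all genes few or no calls were made whichever array was left out. The counts were 0 without control 1, control 3, treated 2 or treated 3, 54 without control 2 and 46 without treated 1. Each such fit also has fewer arrays, so the drop cannot be assigned to any single array. At an unadjusted p under 0.05, limma gave 2 higher genes, Cyp2b2 and Cyp2r1, and 4 lower genes, Cyp2c11, Cyp4a3, Cyp4a2 and Cyp4f40, against 11.8% and 13.2% of all genes (25.0% in either direction). Groups did not overlap for 1 gene with higher treated values, Cyp2b2, and for the same 4 lower genes, against 14.1% and 18.7% of all genes (32.8% in either direction). By each of these rules the P450 share lay below that of all genes. Treated means were lower for 29 of the 42 genes, against 56.5% of all genes. The median log2 difference was -0.18, against -0.030 over all genes, and it was -0.042, -0.13 and -0.22 when taken in treated animals 1, 2 and 3 singly. Without control 3 the median was -0.13, with 30 of 42 means lower.

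The size of the differences was known with unequal precision. For 27 of the 42 genes (64.3%) the whole 95% interval of the difference lay within a 2-fold change either way, against 89.1% of all genes. Single arrays moved many of these values. Among differences of at least 0.1 in size, leaving out control 3 moved those of Cyp2j3 from -0.26 to -0.16, Cyp4f5 from -0.52 to -0.30, Cyp4f6 from 0.10 to 0.0028, Cyp7b1 from -0.37 to -0.24, Cyp11a1 from -0.13 to 0.030, Cyp26a1 from -0.51 to -0.24 and Cyp27a1 from -0.12 to -0.027, besides the genes named above as high on that array. The differences listed here shrank or changed sign. Others grew without control 3, among them Cyp4v3 from 0.35 to 0.50 and Cyp2b2 from 0.33 to 0.41. Only 3 genes differed at least 2-fold in mean, Cyp2c11, Cyp11b3 and Cyp24a1. Treated 3 held the lowest of the 6 values for 18 of the 42 genes, against 17.5% of all genes, and control 3 held the highest for 14, against 15.6%.

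**Figure D2:**
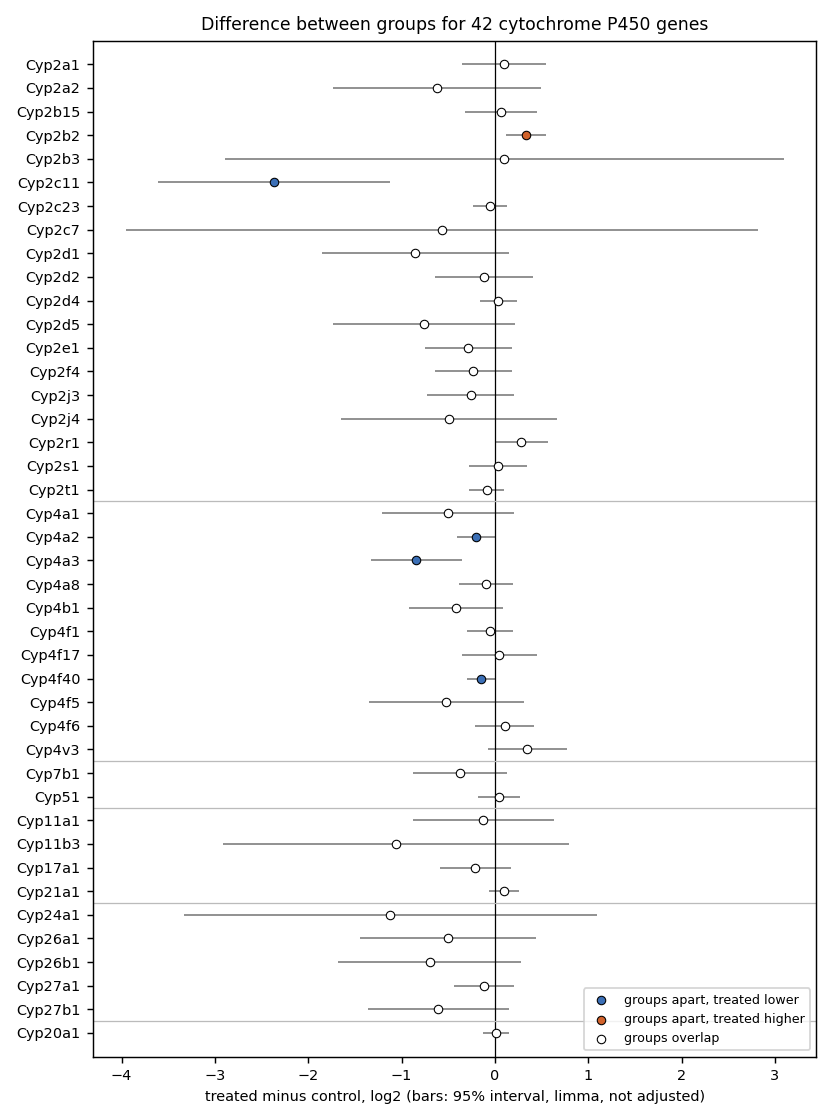
Difference in log2 signal, treated minus control, for each of the 42 kept P450 genes, ordered by family and with grey lines between the enzyme classes. Points are means over 3 animals per group and bars are 95% intervals from limma, not adjusted for the number of genes; filled points mark the 5 genes whose groups did not overlap, and Cyp2c7 and Cyp2b3 have the widest bars.

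The enzymes of families 1 to 3, which oxidise foreign compounds, steroids and arachidonic acid, had 19 kept genes of 39 with a probe, all from family 2. Their median log2 difference was -0.11, with 7 means higher and 12 lower and 0 called. Cyp2c11, the male-specific steroid hydroxylase of rat liver, read -3.31, -1.92 and -1.33 in controls and -4.77, -4.29 and -4.60 in treated animals. All treated values lay below all control values, and control 1 was the lowest of the controls. The difference was -2.37 (SE 0.50, 95% interval -3.61 to -1.12, limma adjusted p = 0.060), and without control 3 it was -1.94 (adjusted p = 0.12). The summed liver markers were 3.74, 2.45 and 20.1 in the same controls and 3.19 to 3.65 in treated animals, and their part in this difference was not tested. With an intensity trend in the limma prior Cyp2c11 was called (adjusted p = 0.042). With a normexp background its difference was smaller, -1.17 (limma adjusted p = 0.083).

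The 250 bases before the RefSeq start of Cyp2c11 are shown because this gene had the largest difference of the family. They lie at chr1:246174966-246175215 on the plus strand of GRCr8. The capitals mark AGGTCA, the half-site bound by several nuclear receptors, which lies 123 bases before the start.
Cyp2c11: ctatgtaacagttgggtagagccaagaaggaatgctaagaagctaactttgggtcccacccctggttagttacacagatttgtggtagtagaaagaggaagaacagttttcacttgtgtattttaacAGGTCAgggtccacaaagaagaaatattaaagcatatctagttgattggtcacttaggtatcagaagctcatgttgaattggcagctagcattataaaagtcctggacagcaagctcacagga

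Cyp2b2, known for its induction by phenobarbital in liver, was the only gene with all treated values above all control values. It read -2.58, -2.66 and -2.37 in controls and -2.20, -2.19 and -2.23 in treated animals. The treated values lay close together, just above the highest control, and the difference was 0.33 (SE 0.087, limma adjusted p = 0.092). The other kept members of its subfamily had differences of 0.063 (SE 0.16) for Cyp2b15 and 0.099 (SE 1.21) for Cyp2b3. Both passed the filter through the treated group alone, so their positive signs lend Cyp2b2 no support. The sign of Cyp2b15 turned under a normexp background and under quantile scaling, and that of Cyp2b3 under a normexp background. Cyp2b3 rested on control 3: its controls read -5.63, -6.13 and -1.56 and its treated animals -4.55, -4.43 and -4.04. Controls 1 and 2 were not well above background, so without control 3 there is only an approximate bound, about 2.55-fold higher in treated animals. Cyp2c7, a liver enzyme, had the same shape, with -5.96, -5.87 and -0.98 in controls and -4.94, -4.91 and -4.67 in treated animals. Its difference was -0.57 (SE 1.37), and without control 3 treated cortex lay about 1.81-fold above the approximate bound for controls. Both bounds set each control to the lowest signal well above background on its array, a mean of -5.69. A probe can miss the flag above that signal, so neither bound is a strict limit. Cyp2b15, with controls from -5.08 to -4.84, was well above background on only 2 of them. Cyp2b3 and Cyp2c7 passed the filter through the treated group alone, so no test is given for them.

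Cyp2c23, the main arachidonic acid epoxygenase of rat kidney, did not separate the groups. Controls read 8.38, 8.23 and 8.43 and treated animals 8.24, 8.32 and 8.32. Its difference of -0.054 had a 95% interval of -0.23 to 0.12. Cyp2e1, which oxidises ethanol and other small molecules, read 6.39, 5.89 and 5.93 in controls and 5.92, 5.96 and 5.49 in treated animals. The highest value was in control 1 and the lowest in treated 3, with a difference of -0.28 (SE 0.19, limma adjusted p = 0.40). Cyp2r1, a vitamin D hydroxylase by function, read -1.31, -1.26 and -1.11 against -1.15, -0.89 and -0.79. The groups overlapped at control 3 and treated 1, and the difference was 0.28 (SE 0.11, limma adjusted p = 0.20).

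Cyp2d1, Cyp2d5 and Cyp2j4 varied widely among animals of the same group. Cyp2d1, a drug-oxidising enzyme, read 4.20, 5.14 and 4.73 in controls and 4.62, 3.57 and 3.31 in treated animals. Its close relative Cyp2d5 read 4.31, 5.22 and 4.84 against 4.78, 3.81 and 3.49. In both genes control 2 was highest, treated 1 lay among the controls and treated 2 and 3 were lowest. The differences were -0.86 (SE 0.41, limma adjusted p = 0.26) for Cyp2d1 and -0.76 (SE 0.39, adjusted p = 0.29) for Cyp2d5. How far the probes of such near copies also bind each other's transcripts was not tested. Cyp2j4, a fatty acid epoxygenase, read -1.28, 0.22 and -0.34 in controls and -0.28, -1.20 and -1.40 in treated animals, with the same animals high and low except that control 1 was also low (difference -0.50, SE 0.47, limma adjusted p = 0.55).

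A pair of proximal tubule transporter genes, singled out after their values were seen, had similar profiles. Slc7a13 read 2.51, 5.89 and 4.23 in controls and 4.17, 1.38 and 2.57 in treated animals, and Slc22a7 read -3.88, -1.01 and -2.91 against -1.48, -4.13 and -3.59. Control 2 was highest and treated 2 lowest for both. The other 11 members of the proximal tubule list had log2 differences between -0.58 and 0.041, and the part of tubule segment composition in the P450 values was not tested. The remaining family 2 genes had differences of 0.036 for Cyp2d4, -0.11 for Cyp2d2, -0.26 for Cyp2j3, -0.23 for Cyp2f4, 0.030 for Cyp2s1, -0.089 for Cyp2t1, 0.097 for Cyp2a1 and -0.62 for Cyp2a2. All of these had overlapping groups, and their limma adjusted p ran from 0.43 to 0.91. Cyp2a2 read -3.94 on control 3 and -5.76 to -5.11 on the other arrays, and its difference was -0.14 without control 3.

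**Figure D3:**
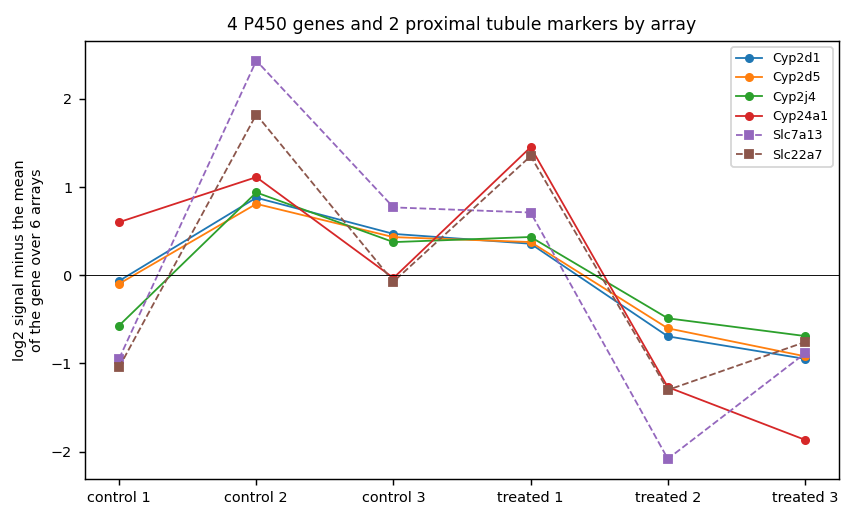
Log2 signal on each array minus the mean of the same gene over the 6 arrays, for Cyp2d1, Cyp2d5, Cyp2j4 and Cyp24a1 (circles, solid lines) and the proximal tubule markers Slc7a13 and Slc22a7 (squares, dashed lines). Lines join the values of 1 gene; control 2 is high and treated 2 and 3 are low for all 6 genes, and treated 1 lies above the mean for all of them.

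Family 4 holds the fatty acid omega-hydroxylases, and 11 of its 14 genes with a probe were kept. Their median log2 difference was -0.15, with 8 means lower, 3 higher and 0 called. The Cyp4a subfamily, which turns arachidonic acid into vasoactive hydroxy acids in the kidney and is a classical target of the receptor PPAR-alpha, was kept in full (4 of 4). All 4 means were lower in treated cortex on the probe that represents each gene, with a median of -0.35. The other probes of Cyp4a8 went the opposite way, as described below. Cyp4a3 read 8.08, 7.59 and 7.75 in controls and 6.83, 6.75 and 7.32 in treated animals. Every treated value lay below every control, with treated 3 nearest, for a 1.80-fold lower mean (log2 difference -0.84, SE 0.20, 95% interval -1.33 to -0.36, limma adjusted p = 0.070). It was called with a normexp background (adjusted p = 0.0489) and with an intensity trend in the prior (adjusted p = 0.0474), and its difference ran from -1.02 to -0.71 over the 6 fits that left out 1 array.

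Cyp4a2 read 8.59, 8.63 and 8.76 in controls and 8.55, 8.34 and 8.46 in treated animals. The groups did not overlap but nearly met, and the difference was -0.21 (SE 0.081, limma adjusted p = 0.19). A second probe of Cyp4a2 had overlapping groups and a difference of -0.44. Cyp4a1 read 5.53, 5.11 and 5.51 against 5.24, 5.13 and 4.27, with treated 3 well below the rest (difference -0.50, SE 0.29, limma adjusted p = 0.33), and without treated 3 the difference was -0.20. Its second probe gave -0.45. Cyp4a8 was level on its brightest probe, at 8.08, 8.18 and 8.21 in controls and 8.29, 7.88 and 8.02 in treated animals (difference -0.092, limma adjusted p = 0.66).

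The other 2 probes of Cyp4a8 went the opposite way. The first read 4.56, 4.65 and 4.43 in controls and 5.28, 5.54 and 5.64 in treated animals, so all treated values were clearly above all controls. In a limma fit over all 40988 kept probes it was 1.92-fold higher (log2 difference 0.94, SE 0.12, adjusted p = 0.012). The second read 6.02, 6.07 and 5.91 against 6.32, 6.49 and 6.51, again without overlap, for a difference of 0.44 (SE 0.084, adjusted p = 0.038). In that fit 3 of 66 P450 probes were called, against 6.72% of all probes. With the mean of its 3 probes Cyp4a8 was called higher (log2 difference 0.43, limma adjusted p = 0.037). The first probe kept an adjusted p under 0.05 in 5 of 6 fits that left out 1 array (0.056 without treated 2), and the second in none of them (0.055 to 0.12). The second also lost its call with median scaling (adjusted p = 0.073).

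The third called probe was of Cyp2b15 and was well above background on no control array and on all treated arrays. Its controls read -6.09, -6.63 and -6.39 and its treated animals -5.37, -5.09 and -5.33. Treated animals were 1.175-fold higher when each control was raised to the lowest signal well above background on its array, which is not a strict limit. It passed the filter through the treated group alone, where it was high, so its call supports nothing further. The probe that represents Cyp2b15 read -4.84, -4.98 and -5.08 in controls and -4.67, -5.22 and -4.82 in treated animals, with mixed groups. Of 19 P450 genes with more than 1 kept probe, 3 had probes of both signs, Cyp4a8, Cyp2s1 and Cyp11b3. For Cyp11b3 control 3 was the highest array on 1 probe (-1.88) and the lowest on the other (-7.29).

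**Figure D4:**
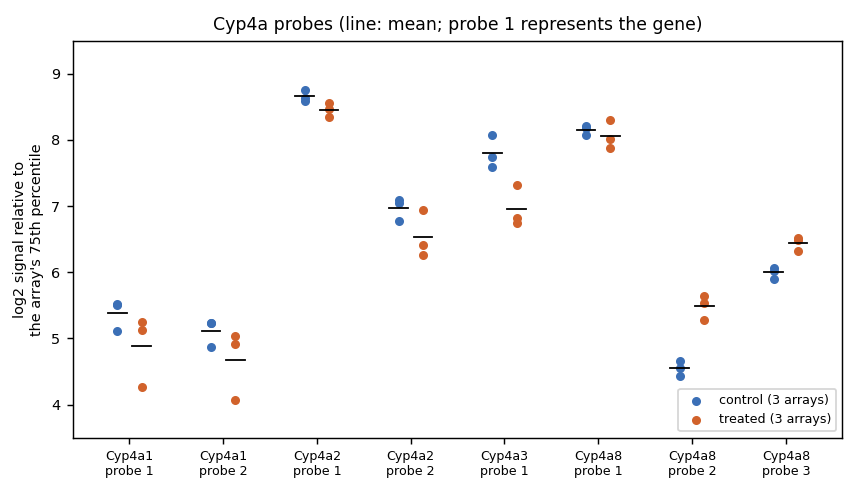
Log2 signal relative to the array's 75th percentile for the 8 kept probes of the 4 Cyp4a genes, with 1 point per animal and a line at the mean of each group of 3. Cyp4a3 and the brightest probe of Cyp4a2 have all treated animals below all controls, and probes 2 and 3 of Cyp4a8 have all treated animals above all controls.

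The 250 bases before the RefSeq starts of 3 Cyp4a genes are shown. They were chosen because, on the brightest probes, Cyp4a2 and Cyp4a3 had non-overlapping groups in 1 direction and Cyp4a8 did not. The other probes differ from this split. The second Cyp4a2 probe had overlapping groups, and the other Cyp4a8 probes had all treated values above all controls. On GRCr8 the 3 stretches lie on the minus strand at chr5:134170909-134171158 for Cyp4a2, chr5:134352237-134352486 for Cyp4a3 and chr5:133970227-133970476 for Cyp4a8. Capitals again mark AGGTCA, 105 bases before the start in Cyp4a2 and in Cyp4a3.
Cyp4a2: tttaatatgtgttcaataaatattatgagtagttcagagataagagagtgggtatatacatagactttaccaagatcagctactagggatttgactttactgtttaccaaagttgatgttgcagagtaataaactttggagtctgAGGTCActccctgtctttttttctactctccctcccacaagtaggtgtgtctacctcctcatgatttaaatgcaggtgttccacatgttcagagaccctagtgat
Cyp4a3: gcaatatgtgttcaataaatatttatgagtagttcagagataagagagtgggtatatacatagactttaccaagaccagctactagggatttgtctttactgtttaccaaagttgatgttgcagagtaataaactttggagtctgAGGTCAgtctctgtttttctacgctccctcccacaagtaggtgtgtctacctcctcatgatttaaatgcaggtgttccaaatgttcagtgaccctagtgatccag
Cyp4a8: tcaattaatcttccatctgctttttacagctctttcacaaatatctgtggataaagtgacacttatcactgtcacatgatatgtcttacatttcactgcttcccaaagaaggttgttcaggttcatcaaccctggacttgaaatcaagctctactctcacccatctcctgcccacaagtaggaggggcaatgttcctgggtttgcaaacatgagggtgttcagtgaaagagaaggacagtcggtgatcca

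The windows of Cyp4a2 and Cyp4a3 were 92.5% identical, at 236 of 255 aligned columns, whereas Cyp4a8 matched them at 57.4% and 59.9%. Unrelated windows aligned in the same way, Cyp2c11 against the Cyp4a genes, gave 49.1% to 50.3%. AGGTCA is absent from the Cyp4a8 window on both strands. The motif was chosen after these sequences were seen. It was present on either strand in 12 of the 34 kept genes with a RefSeq window (35.3%), against 14.1% of 33469 windows of the same length. Cyp2c11, Cyp4a2 and Cyp4a3, whose windows were seen before the choice, are among the 12. The excess is therefore partly built in and supports nothing further. GCGTG, the core bound by the aryl hydrocarbon receptor, was present in 11 of 34 (32.4%) against 25.9% of all windows, and TGACNNNGC, the antioxidant response core, in 3 of 34 (8.82%) against 10.1%. For each motif a gene counted where any of its windows matched, whereas the share of all windows counts single windows. A match describes letters only.

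Among the remaining family 4 genes, Cyp4f40 read 1.69, 1.68 and 1.64 in controls and 1.56, 1.56 and 1.43 in treated animals. The groups did not overlap and the difference was small, -0.15 (SE 0.060, limma adjusted p = 0.20). Cyp4f1, a leukotriene and fatty acid hydroxylase, read 6.33, 6.53 and 6.27 against 6.37, 6.42 and 6.19 and did not separate the groups (difference -0.053, 95% interval -0.30 to 0.19). Cyp4v3, a fatty acid hydroxylase, had the largest positive mean difference of the 42 genes, 0.35 (SE 0.17, limma adjusted p = 0.28). It read -2.51, -2.43 and -2.01 in controls and -2.01, -1.74 and -2.17 in treated animals, with control 3 among the treated values. Cyp4b1 had a difference of -0.42 and Cyp4f5 of -0.52, with treated 3 lowest for the former and treated 2 for the latter. Cyp4f6 (0.10) and Cyp4f17 (0.047) had overlapping groups.

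The vitamin class, which makes or breaks down vitamin D and retinoic acid, was kept in full. All 5 treated means were lower, with a median log2 difference of -0.61, and the groups overlapped for all 5. Classes were set by family number, so Cyp2r1, a vitamin D hydroxylase by function, was not counted here. Its treated mean was higher (difference 0.28). Cyp27b1, the proximal tubule enzyme that makes active vitamin D, read 0.39, -0.53 and -0.05 in controls and -0.71, -0.23 and -1.07 in treated animals. Only treated 2 lay inside the control range, and the difference was -0.61 (SE 0.31, limma adjusted p = 0.28). Cyp24a1, which breaks active vitamin D down, read 1.49, 2.00 and 0.85 in controls and 2.34, -0.38 and -0.98 in treated animals. Treated 1 was the highest of all animals and treated 2 and 3 were the lowest, and the difference of -1.12 (SE 0.89, limma adjusted p = 0.48) became -2.13 without treated 1 (adjusted p = 0.091). A second Cyp24a1 probe had the same order of animals.

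Cyp26b1 and Cyp26a1, which clear retinoic acid, had differences of -0.70 (SE 0.40) and -0.51 (SE 0.38), with limma adjusted p of 0.33 and 0.46. Cyp26b1 read 0.51, 0.65 and 0.82 in controls and 0.32, 0.52 and -0.96 in treated animals, and without treated 3 its difference was -0.24. Cyp26a1 read -3.15, -3.33 and -2.45 against -3.25, -4.20 and -2.99, with treated 2 lowest. The difference of Cyp26a1 was -0.15 without treated 2 and -0.24 without control 3. Cyp27a1, the mitochondrial sterol side-chain hydroxylase, had a difference of -0.12 (95% interval -0.44 to 0.20).

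Cyp51, the lanosterol demethylase of cholesterol synthesis, read -0.19, -0.10 and -0.34 in controls and -0.21, -0.24 and -0.05 in treated animals. The values were mixed between groups, with a difference of 0.043 (95% interval -0.18 to 0.26). Cyp7b1, an oxysterol hydroxylase and the other kept gene of 5 in the sterol class, read -0.94, -0.60 and -0.36 against -0.72, -1.03 and -1.29 (difference -0.37, SE 0.20, limma adjusted p = 0.31). Of the steroid hormone enzymes, 4 of 7 were kept. Cyp11a1, the cholesterol side-chain cleavage enzyme, had a difference of -0.13, Cyp17a1 of -0.21 and Cyp21a1 of 0.094, and all had overlapping groups. Cyp11b3, an adrenal steroid hydroxylase, read -4.63, -4.43 and -1.88 in controls and -4.69, -4.45 and -4.97 in treated animals, and its difference of -1.06 was -0.17 without control 3. Of 10 adrenal markers 4 passed the filter, and their list summed to 4.78 to 9.29 in controls and 5.86 to 6.99 in treated animals. Among them Th, the catecholamine enzyme tyrosine hydroxylase, rose from 0.28, -0.02 and 0.24 to 0.97, 0.99 and 0.98 (limma adjusted p = 0.022). The call of Th was lost with no filter on dim probes (limma adjusted p = 0.053) and with the mean of its probes (0.058). It was also lost with the replicate number as a block (0.11) and in 5 of 6 fits that left out 1 array. The block fit called 0 of all genes, and the fits without 1 array called 0 to 54. Over the latter the log2 difference of Th ran from 0.72 to 0.87. Cyp20a1, whose substrate is not known, was level, with a difference of 0.014 (95% interval -0.12 to 0.15).

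**Figure D5:**
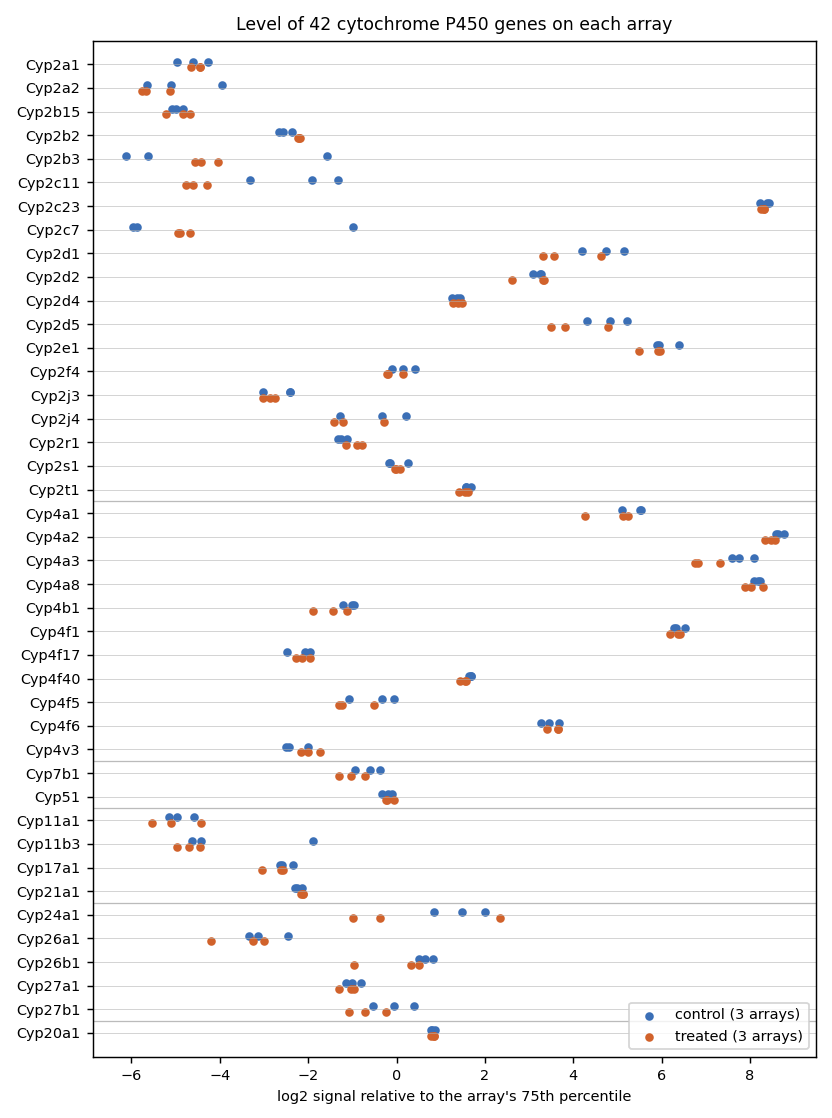
Log2 signal relative to the array's 75th percentile for the 42 kept P450 genes, with 1 point per animal (blue, 3 controls; orange, 3 treated) and grey lines between enzyme classes. Each gene is read against itself, since probes differ in brightness; the ranges of control and treated points overlap except for Cyp2c11, Cyp4a3, Cyp4a2, Cyp4f40 and Cyp2b2.

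Genes below the filter included the classical markers of induction. Of the 29 genes not kept, 18 had no probe well above background on any array. Cyp1a1 and Cyp1a2, targets of the aryl hydrocarbon receptor, were among them, as were Cyp1b1, Cyp2b1, Cyp3a9, Cyp7a1, Cyp19a1, Cyp11b1 and Cyp11b2. Cyp1a1 read -7.46, -7.71 and -6.97 in controls and -7.94, -7.89 and -7.84 in treated animals, and was well above background on none of these arrays. A level below background gives only a bound, so decreases, and increases too small to lift a probe above background, were not detectable here. The genes just outside the filter, well above background on 2 of the 3 arrays of a group, were Cyp2c24, Cyp2d3, Cyp4f4, Cyp4f18, Cyp4x1 and Cyp39a1. Cyp4x1 was well above background on 2 treated arrays and no control array, at -6.64, -8.10 and -7.34 in controls and -5.44, -6.26 and -5.62 in treated animals. A second probe of Cyp4x1 was well above background on no array. Of the 42 kept genes 39 were well above background on all 6 arrays. The 3 just inside the filter, Cyp2b3, Cyp2b15 and Cyp2c7, whose levels are given above, passed through the treated group alone.

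Cyp2c24, not kept, divided the animals into a high and a low set. It read -0.96, -7.08 and 0.45 in controls and -8.11, -0.41 and 0.16 in treated animals. Control 2 and treated 1 were thus at background and the other 4 animals were high. The gap was 4.84 log2 units when the low values are raised to the lowest signal well above background on their arrays. A second probe gave the same split (-3.29, -7.81 and -1.98 against -7.91, -2.67 and -2.19). Among 15645 genes with a named probe it was the only one with this split of animals at a gap of at least 3 and the 4 high arrays well above background. The split cuts across the treatment groups and was singled out after the values were seen.

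Genes that serve the P450 system were examined as 4 lists drawn up by role, with earlier results of these data known. Of all genes kept, 4.38% were called, and groups did not overlap for 14.1% with treated higher and 18.7% with treated lower. Of the 12 electron donors and haem partners, 0 were called and the median log2 difference was -0.10. Their groups did not overlap for 1 higher and 4 lower genes. Por, the reductase that feeds microsomal P450, read 2.99, 3.01 and 2.80 in controls and 3.29, 3.46 and 2.98 in treated animals, with treated 3 inside the control range (difference 0.31, limma adjusted p = 0.24). The smallest p values belonged to Cyb5r4, a cytochrome b5 reductase (difference -0.34, adjusted p = 0.072), and Fdx2, a mitochondrial ferredoxin (-0.19, adjusted p = 0.11). Of 22 regulators 21 were tested and 0 were called, with a median of -0.084. Their groups did not overlap for 1 higher and 3 lower genes. Stat5a, a transcription factor downstream of growth hormone and prolactin, read 1.31, 1.07 and 0.99 in controls and 0.58, 0.71 and 0.42 in treated animals. Its groups did not overlap (difference -0.55, SE 0.12, limma adjusted p = 0.059). Nr1i2, the pregnane X receptor, had a difference of -0.16 (adjusted p = 0.17).

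Of 13 genes that handle eicosanoids and epoxides 12 were tested, and 1 was called, against 4.38% of all genes. Their groups did not overlap for 2 higher and 0 lower genes, against 14.1% and 18.7% of all genes. Ephx1, the microsomal epoxide hydrolase that opens epoxides made by P450, rose from 3.58, 3.37 and 3.56 to 4.31, 5.07 and 5.24. All treated values were above all controls, a 2.58-fold higher mean (log2 difference 1.37, SE 0.25, limma adjusted p = 0.045). The median of the list was -0.092. The call of Ephx1 was lost with median scaling, with no filter on dim probes and with the mean of a gene's probes. It was also lost with the replicate number as a block and in 5 of 6 fits that left out 1 array. The block fit called 0 of all genes, and the fits without 1 array called 0 to 54. Over the latter the log2 difference of Ephx1 ran from 1.18 to 1.65. Alox15, a lipoxygenase named outside the rule after its values were seen, read -2.64, -3.02 and -4.08 against -2.54, 0.49 and 1.06, with treated 1 next to the controls (limma adjusted p = 0.15). Of 13 genes for vitamin D and steroid handling 0 were called, with a median of -0.084. Their groups did not overlap for 0 higher and 4 lower genes, against the same shares of all genes. Kl, the klotho co-receptor, had a difference of -0.23 (adjusted p = 0.075) and Hsd11b2, which inactivates glucocorticoids, of -0.39 (adjusted p = 0.082), both without overlap between groups.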

How the data were processed

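Total RNA of renal cortex from 6 rats was labelled with Cy3 and hybridised to 1 array per animal, per the labels' protocols. The scanner software was Agilent Feature Extraction, given as 10.7.1.1 in the file headers and as 10.7 in the submitters' processing notes, and the array design refers to rat build rn4. The deposited intensity of a spot is, per the file headers, a processed signal from which background and a spatial trend were removed. The authors' deposited value table was found to be a plain ratio of the same signal to the 75th percentile of its array (median quotient 0.998), a step no label states, with column medians from 0.105 to 0.110.

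Here log2 signal minus the array's 75th percentile over 61537 non-control probes was used, with 1 to 3 outlier spots per array left missing and none saturated. Accessions without versions matched a RefSeq table of assembly GRCr8 for 28206 probes of 15645 genes, and 33331 probes were unnamed. The brightest kept probe stood for a gene. Groups were compared over the 12130 kept genes by lmFit and eBayes of limma 3.58.1 in R 4.3.3, with Benjamini-Hochberg adjustment over all of them, a threshold of 0.05 and 1.77 prior degrees of freedom. The fit was tested on simulated data. Promoter windows from RefSeq (GRCr8) were aligned with Biopython 1.88, and 34 of 42 kept genes had one. Protein sequences were not used here.

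The P450 members, enzyme classes, lists and alternatives were chosen with earlier results of these data known. Named genes were those called, those without overlap between groups, the brightest of each subfamily, and Cyp1a1, Cyp1b1, Cyp2c11, Cyp2e1, Cyp24a1, Cyp27b1 and Cyp51, plus called members of each list or its 2 with the smallest p. Exceptions are said to be so, and all other kept P450 genes are given by their difference. Thick ascending limb markers summed to 311 to 435 in controls and 252 to 340 in treated animals, collecting duct markers to 160 to 178 and 135 to 180, glomerular and endothelial markers to 67.9 to 74.1 and 57.2 to 68.7, and leukocyte markers to 7.41 to 9.52 and 6.68 to 7.83.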

Additional observations from a re-analysis of the deposited data

How the results depend on the processing

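The count of called P450 genes was 0 with quantile or median scaling, with no filter or a stricter filter on dim probes, with the deposited value table and in all fits that left out 1 array. Of all genes 3.72% were called with quantile scaling, 3.43% with median scaling, 5.07% with the stricter filter and 4.39% with the deposited value table. The fits without 1 array and the unfiltered fit say little about P450 genes, since they called 0 to 54 of 12130 and 44 of 15645 genes in all. The P450 count was 1 with a normexp background (Cyp4a3, 8.01% of all genes called) and 2 with an intensity trend (Cyp2c11 and Cyp4a3, 6.89%). It was 1 with the mean of a gene's probes (Cyp4a8, 2.41%). Equal replicate numbers did not pair the animals, since the correlations of their deviations from the group means were -0.12, -0.11 and 0.089. The replicate number used as a block gave 0 called P450 genes and 0 calls over all 12130 genes. It gave 0 of 66 P450 probes and 0 called genes of eicosanoid and epoxide handling. A slide or scan block could not be fitted, since each slide held 1 group. Called redox partners were 1 with a normexp background and 1 with an intensity trend, called regulators 1 with the trend, and called vitamin D and steroid genes 1 with either. Eicosanoid and epoxide calls dropped from 1 to 0 with median scaling, with no filter and with the mean of probes, and ran from 0 to 1 over the fits without 1 array. Called P450 probes, tried under alternatives chosen after seeing the data, were 5 with the trend and 0 to 3 without 1 array. They were 0 without treated replicate 2 and 1 without treated replicate 1 or 3. The share of all probes called in these fits is not given here, so the counts say nothing about P450 probes in particular.

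Some differences changed sign, and not all of these changes were small. With a normexp background Cyp2a1 was -0.046, Cyp2b15 -0.11 and Cyp2b3 -0.43. Quantile scaling gave -0.018 for Cyp2b15 and 0.014 for Cyp4f1, median scaling -0.019 for Cyp20a1 and -0.0039 for Cyp2s1, and the mean of probes 0.43 for Cyp4a8. Without 1 array the range was -0.43 to 0.13 for Cyp11a1, -0.0084 to 0.040 for Cyp20a1, -0.076 to 0.27 for Cyp2a1, -0.053 to 0.22 for Cyp2b15, -0.74 to 1.54 for Cyp2b3, -1.41 to 1.08 for Cyp2c7, -0.24 to 0.13 for Cyp2d2, -0.013 to 0.090 for Cyp2d4, -0.040 to 0.17 for Cyp2s1, -0.11 to 0.024 for Cyp4f1, -0.11 to 0.15 for Cyp4f17 and -0.021 to 0.098 for Cyp51. The upper ends for Cyp2b3 and Cyp2c7 are against controls not well above background. The median P450 difference stayed between -0.25 and -0.11 under all settings run. Over all genes 459 were higher and 513 lower with a normexp background, against 370 and 161. The causes were not tested. With 3 animals per group, 27 of 42 intervals lay within a 2-fold change, so larger changes of the other genes remain possible.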

Other observations

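Gc, the gene of the vitamin D binding protein, which the liver secretes, was chosen with its values in view. Its level was -3.79, -1.08 and 0.33 in controls and -3.39, -4.31 and -3.94 in treated animals. The controls stood in the same order as for Cyp2c11, lowest in control 1 and highest in control 3, but control 1 lay inside the treated range. The log2 difference was -2.37 (SE 1.03, limma adjusted p = 0.23), and -1.45 without control 3 (SE 0.84, adjusted p = 0.39).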
